A study of Mus musculus with 32 samples.

Results

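The genes described here are 10 regulators of cell cycle entry: the CDK inhibitors Cdkn1a, Cdkn1b, Cdkn1c and Cdkn2c, the D cyclins Ccnd1 and Ccnd2, the retinoblastoma gene Rb1, the forkhead factors Foxo1 and Foxo3, and Trp53. They were taken by gene symbol from a table of 38740 symbols, and each of the 10 had a line in it. RNA had been profiled in 4 libraries made from pools of 10 cells and in 28 libraries made from 1 cell each, all from the subventricular zone, the neurogenic layer beside the lateral ventricle, of mice at postnatal day 21. The labels named no strain, genotype, sex, animal, treatment or sort, and the series title speaks of dormant neural stem cells.

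A cell leaves rest when D cyclins, bound to their kinases Cdk4 or Cdk6, phosphorylate the Rb protein, which releases the E2F factors that drive DNA replication genes. INK4 inhibitors such as the product of Cdkn2c bind Cdk4 and Cdk6, whereas the CIP/KIP inhibitors encoded by Cdkn1a, Cdkn1b and Cdkn1c bind cyclin and kinase complexes. FOXO factors and p53, the product of Trp53, are transcription factors that activate inhibitor genes, among them Cdkn1b for FOXO and Cdkn1a for p53. In mice, loss of Cdkn1a, of Foxo3 or of Cdkn1c has been linked to a loss of quiescence or of the stem cell pool in adult neurogenic zones, and Ccnd2 is needed for adult neurogenesis.

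Values are FPKM, a read level scaled to transcript length and to the size of the library, as the authors deposited them. A gene is called found in a library at an FPKM of at least 1. The 28 cells stand as 1 sample of cells, so no p-value is given for any difference, and intervals on shares of cells are exact Clopper-Pearson 95% intervals that cover counting error only. The pools contained 11939 ± 1041 found genes (SD, n = 4), and the cells a median of 4986, with a range of 2107 to 10169. Depth could be estimated for 15 libraries, pool 1 and 14 of cells 1 to 17, from the FPKM worth of a single fragment, at about 6.23 to 20.9 in units of 1000000 fragments.

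Libraries 18 to 22 and 23 to 28 stood apart from the rest. Of the genes that reached 500 FPKM in 1 cell of a set and stayed under 5% of that in the others, the remaining values of the set were above 0 in 98.7% of cases in cells 18 to 22 and in 97.6% in cells 23 to 28, against 15.1% in cells 1 to 17. The median of those low values was 0.343% of the highest in cells 18 to 22 and 0.292% in cells 23 to 28. The members showed the same form: Cdkn1b, Ccnd2, Foxo3 and Trp53 were above 0 in 11 of the 11 cells 18 to 28, whereas Cdkn1a, Cdkn1c, Cdkn2c and Ccnd1 were listed at 0 in every one of them. Low values in these cells are therefore also given with values under 2% of a gene's highest in the set put at 0, called the 2% limit below.

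The cells were described by the marker list with the highest mean log2(FPKM + 1) in each. Endothelial markers led in cells 1, 2, 3, 6, 7, 8, 16 and 17, each of which had at least 9 of the 12 listed markers. Cell 3 also had a microglial mean of 5.34, against 8.58 for its endothelial list. Whether that library held more than 1 cell was not tested. Neuroblast markers led in cells 22 to 28, microglial markers in cells 18 to 21, oligodendrocyte markers in cells 4, 12 and 13, ependymal markers in cells 9, 10 and 15, astrocyte markers in cells 11 and 14, and choroid plexus markers in cell 5. Under the 2% limit the list that led in cell 21 became neuroblast. When the leading list was taken by the share of its markers found, it became microglial in cell 22 and astrocyte in cells 9 and 15. The neuroblast and microglial groups lay wholly within libraries 18 to 28, so marker class and library set cannot be told apart for them.

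The sequences of 3 inhibitor promoters are shown because these genes had 3 different patterns across the cells: Cdkn1a high in few, Cdkn1b at modest levels in most, Cdkn2c found in none. Each is a RefSeq window on GRCm38.p6 from 250 bases before to 50 bases after a gene start, written 5′ to 3′ on the gene's strand. The Cdkn1a window lies at chr17:29090729-29091028 on the plus strand, the Cdkn1b window at chr6:134920151-134920450 on the plus strand and the Cdkn2c window at chr4:109666707-109667006 on the minus strand. Capitals mark a p53 site match in Cdkn1a and the E2F core TTCCCGC in Cdkn2c. Cdkn1a and Cdkn2c each have a second RefSeq window, at chr17:29093519-29093818 and chr4:109665323-109665622, which holds neither match and is not shown.
Cdkn1a: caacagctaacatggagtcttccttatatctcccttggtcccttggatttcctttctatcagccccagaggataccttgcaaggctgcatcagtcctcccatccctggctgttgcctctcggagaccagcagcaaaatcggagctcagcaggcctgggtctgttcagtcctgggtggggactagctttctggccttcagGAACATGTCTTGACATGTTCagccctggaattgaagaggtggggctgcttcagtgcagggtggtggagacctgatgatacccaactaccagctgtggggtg
Cdkn1b: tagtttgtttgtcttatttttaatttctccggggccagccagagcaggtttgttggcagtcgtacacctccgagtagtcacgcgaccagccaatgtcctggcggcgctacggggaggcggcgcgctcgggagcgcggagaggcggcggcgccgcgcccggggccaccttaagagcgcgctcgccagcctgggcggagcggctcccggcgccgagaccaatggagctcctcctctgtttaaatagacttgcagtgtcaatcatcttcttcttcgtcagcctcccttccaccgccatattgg
Cdkn2c: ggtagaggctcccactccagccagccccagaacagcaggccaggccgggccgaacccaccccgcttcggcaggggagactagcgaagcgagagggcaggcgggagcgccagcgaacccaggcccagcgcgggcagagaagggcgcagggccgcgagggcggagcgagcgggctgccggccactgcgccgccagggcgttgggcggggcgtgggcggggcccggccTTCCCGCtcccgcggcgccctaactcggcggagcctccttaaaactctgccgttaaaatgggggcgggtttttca

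The p53 match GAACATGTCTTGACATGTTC spans bases 200 to 219 of the Cdkn1a window, ends 31 bases before the start, and has 1 mismatch to the p53 consensus. Such a match had the core C and G bases of the consensus exact and at most 1 mismatch elsewhere, on either strand. It was present in 22 of 32851 windows, or 0.0670%. The E2F core, searched on both strands, was present in 4.60% of windows, among them this Cdkn2c window and that of Foxo3. The FOXO core GTAAACA was present in 3.65% of windows and in none of the 8 windows that matched 6 members (Cdkn1a, Cdkn1b, Cdkn2c, Foxo1, Foxo3 and Trp53). A match describes letters in a window, not a bound site. The motifs did not overlap one another in the windows shown.

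The pools contained 8.75 ± 0.957 of the 10 members (SD, n = 4), and the single cells 3.21 ± 1.62 (SD over 28 cells), from 1 to 7. Cells 3 and 5 had the most, with 7 members each. Of the 280 pairs of member and cell, 90 were at FPKM of at least 1, 127 were listed at 0 and 63 lay between. A member was found in a median of 8 cells, against a median of 6 cells for the 18856 genes found in a cell at all. The number of members found followed the number of genes found per cell, with a Spearman rho of 0.68 over the 28 cells, which share their depth between both counts. Cells 18 to 28 had 2.27 members on average and a median of 3466 found genes, against 3.82 members and 5932 genes in cells 1 to 17.

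**Figure D1:**
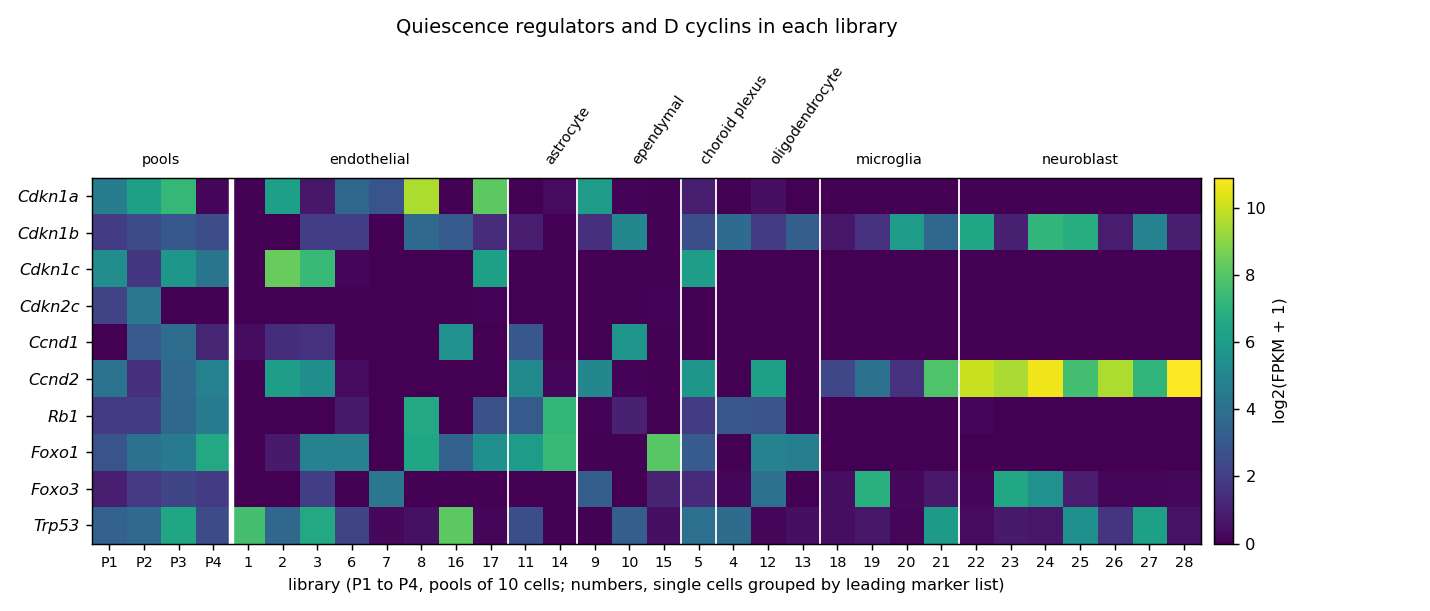
Heat map of log2(FPKM + 1) for the 10 genes (rows) in the 4 pools (left of the thick line) and the 28 single cells grouped by leading marker list (columns). Ccnd2 is bright in cells 21 to 28, Cdkn1a is dark in all of cells 18 to 28, and Cdkn2c is dark in every cell and lit in pools 1 and 2.

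Among the CIP/KIP inhibitors, Cdkn1b, which encodes p27, was found most widely, in 18 of 28 cells (64.3%, interval 44.1% to 81.4%). It had 2.69, 4.71, 6.89 and 4.94 FPKM in the 4 pools, against 0 to 144 FPKM in the cells with a median of 2.88. The pools lay close together and inside the range of the cells, whose highest values were 144 in cell 24, 110 in cell 25, 85.5 in cell 22 and 63.5 in cell 20. Cells led by oligodendrocyte markers had 13.1, 2.83 and 8.83 FPKM, and Cdkn1b was found in each of them. It was found in 4 of the 7 cells led by neuroblast markers, with a median of 27.2 FPKM, and in 14 of the other 21, with a median of 2.83. The 7 cells were split between 4 at 27.2 FPKM or more and 3 at 0.817 to 0.981, which were at 0 under the 2% limit. Neither cell led by astrocyte markers reached 1 FPKM.

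Cdkn1a, which encodes p21, had a narrow pattern with very high single values. Its pools held 23.7, 71.1, 150 and 0.131 FPKM, and its cells 0 to 759 FPKM with a median of 0. It was found in 6 of 28 cells (21.4%, interval 8.30% to 41.0%), and cell 8 alone carried 63.7% of its summed FPKM. Of those 6 cells, 5 were among the 8 led by endothelial markers, with 69.1 in cell 2, 12.004 in cell 6, 6.09 in cell 7, 759 in cell 8 and 280 in cell 17. Among the other 20 cells it was found only in cell 9, at 63.7 FPKM, in which ependymal markers led. Of those 20, 11 were cells 18 to 28, where Cdkn1a was listed at 0. The endothelial-led cells all lay in cells 1 to 17, so marker group and library set partly coincide. The endothelial group and the other cells overlapped, since cells 1, 3 and 16 were below 1 FPKM. The median of the endothelial group was 9.05 FPKM.

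Cdkn1c, which encodes p57, was found in 4 cells (14.3%, interval 4.03% to 32.7%) and was high in each. The pools held 39.1, 2.37, 52.7 and 17.6 FPKM, against 329 in cell 2, 162 in cell 3, 71.3 in cell 17 and 67.6 in cell 5, with every other cell at 0.0949 or less. Endothelial markers led in 3 of these cells and choroid plexus markers in the fourth, cell 5. Cells 2 and 17 also had Cdkn1a.

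Cdkn2c, the INK4 inhibitor known as p18, was found in none of the 28 cells. A count of 0 allows a share of up to 10.7% when 3 cells are taken as the limit, and the exact interval ends at 12.3%. Its only values above 0 were 0.0863 in cell 15 and 0.0840 in cell 17. The pools held 3.70, 19.5, 0 and 0 FPKM. Pools 1 and 2 were therefore above every cell and pools 3 and 4 were not.

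**Figure D2:**
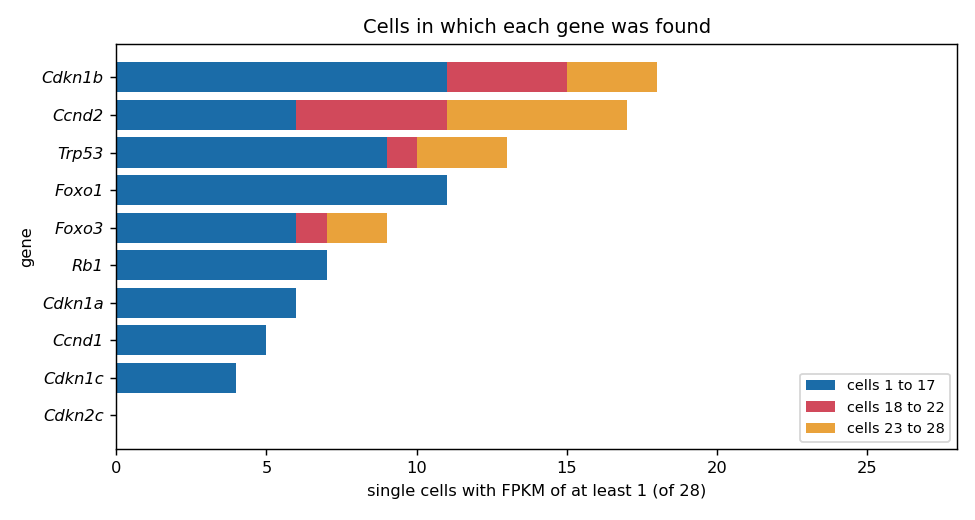
Number of the 28 single cells (horizontal axis) in which each gene was found at FPKM of at least 1, with bars split by library set. Cdkn1b at 18 and Ccnd2 at 17 stand highest, Cdkn2c has no bar, and 5 genes (Foxo1, Rb1, Cdkn1a, Ccnd1 and Cdkn1c) were found only in cells 1 to 17.

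Ccnd2 had the highest values of all the members in the single cells, though not in the pools. It was found in 17 of 28 cells (60.7%, interval 40.6% to 78.5%). The pools held 16.98, 1.86, 12.2 and 26.9 FPKM, against 0 to 1904 FPKM in the cells with a median of 24.3. The 7 cells led by neuroblast markers had 998, 739, 1598, 199, 748, 139 and 1904 FPKM in cells 22 to 28, with a median of 748. Of the other 21 cells, the highest was cell 21 at 238 FPKM, and none of the rest exceeded 72.9. Neuroblast-led cells and the other cells thus overlapped only through cell 21, which lay above cells 25 and 27. With leading lists by the share of markers found, cell 22 at 998 FPKM also counted among the other cells, and the 6 remaining neuroblast-led cells had 139 to 1904 FPKM.

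As deposited, 0.0583% of the 18856 genes found in a cell had all 7 neuroblast-led cells above every other cell, and no member was among them. The same held for no member in the other groups of at least 2 cells, where the share of genes was 0.986% for the astrocyte list, 0.239% for the endothelial list, 0.525% for the ependymal list, 0.541% for the microglial list (0.148% under the 2% limit) and 1.16% for the oligodendrocyte list. Under the 2% limit, where neuroblast markers also led in cell 21, the 8 cells 21 to 28 had 139 FPKM or more and the other 20 cells 72.9 or less. That separation held for 0.0159% of genes, namely Ccnd2, Dlx1 and Dlx6os1. Dlx1, a homeobox factor of interneuron precursors, had at least 514 FPKM in the 8 cells and at most 12.1 in the other 20. Dlx1 and Dlx6os1 belong to the marker list that defined the group, whereas Ccnd2 does not. Cells 18, 19 and 20 had 4.05, 16.2 and 1.95 FPKM of Ccnd2 as deposited and 0 under the limit, so that the count of cells with Ccnd2 became 14. Within cells 1 to 17 Ccnd2 was found in 6, at 32.4 to 72.9 FPKM, under several leading lists.

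**Figure D3:**
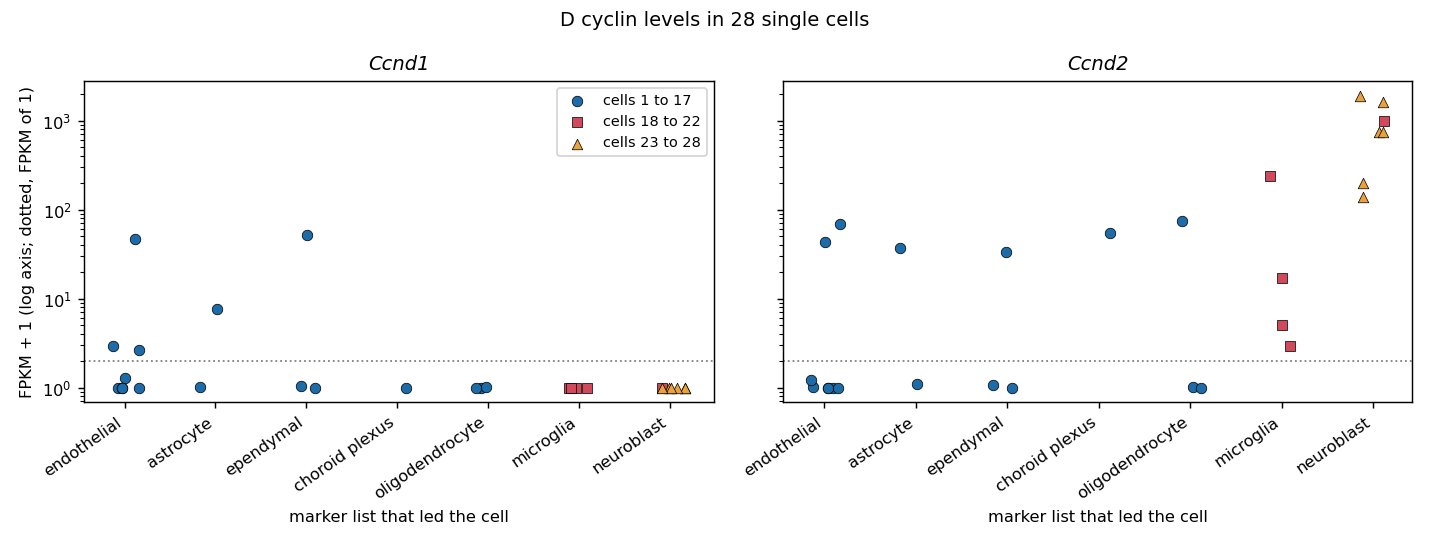
Ccnd1 (left) and Ccnd2 (right) in each single cell as FPKM + 1 on a log axis, with cells placed by leading marker list and marked by library set, and a dotted line at FPKM of 1. Cells led by neuroblast markers sit between 139 and 1904 FPKM for Ccnd2 and at 0 for Ccnd1, and the microglial-led cell at 238 FPKM of Ccnd2 is cell 21.

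Ccnd1 was found in 5 cells (17.9%, interval 6.06% to 36.9%), and its pattern was not that of Ccnd2. The pools held 0, 7.31, 14.1 and 1.16 FPKM, against 50.9 in cell 10, 45.3 in cell 16, 6.69 in cell 11, 1.91 in cell 3 and 1.67 in cell 2. It was listed at 0 in all of cells 18 to 28, where Ccnd2 was highest. Both D cyclins were found together in cells 2, 3 and 11. The line of Ccnd1 overlaps that of Oraov1 on the other strand, which had 162 FPKM in cell 10, 0.0472 in cell 16 and 0 in cells 2, 3 and 11, and the strand setting of the counting is not known here.

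Rb1, the pocket protein on which D cyclin kinases act, was found in 7 cells (25%, interval 10.7% to 44.9%). The pools held 2.57, 2.86, 11.5 and 20.9 FPKM, against 0 to 148 FPKM in the cells with a median of 0. The highest cells were cell 14 at 148 and cell 8 at 95.7, and the other 5 lay between 2.87 and 7.49. Both cells led by astrocyte markers had it, at 7.49 and 148 FPKM, whereas cells 9 and 15, which join that group by the share of markers found, had 0.0882 and 0. The value of 5.57 in cell 17 came from a second, short Rb1 line that lies at Lpar6, a receptor gene on the other strand with 138 FPKM in that cell, so that without it the count is 6. Of the 7 cells with Rb1, 6 also had Foxo1, cell 17 among them, and this overlap was not tested. Both genes were found only in cells 1 to 17, where Foxo1 was found in 11 of the 17 cells.

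Foxo1 was found in 11 cells (39.3%, interval 21.5% to 59.4%). The pools held 6.01, 15.5, 22.4 and 94.3 FPKM, against 0 to 268 FPKM in the cells. Its highest values were 268 in cell 15, 162 in cell 14, 85.5 in cell 8 and 61.5 in cell 11. It was found in both astrocyte-led cells, in 5 of the 8 endothelial-led cells, in 2 of the 3 oligodendrocyte-led cells, and in cells 5 and 15. A line on the other strand, Gm20402, overlaps Foxo1 and had 27.9 FPKM in cell 14 and 15.2 in cell 15. In cells 18 to 28 Foxo1 had no value of 1 or more, and its only value above 0 there was 0.0304 in cell 23.

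Foxo3 was found in 9 cells (32.1%, interval 15.9% to 52.4%), and 4 of the 9 (cells 3, 5, 12 and 15) also had Foxo1. The pools held 0.867, 2.51, 3.88 and 2.69 FPKM, against 0 to 120 FPKM in the cells. The highest cells were cell 19 at 120, cell 23 at 90.1 and cell 24 at 44.7, in which Foxo1 was at 0.0304 or less. In cells 1 to 17 the highest were cell 7 at 19.1 and cell 12 at 14.98. No marker group held Foxo3 in all of its cells apart from the choroid plexus group, which is 1 cell.

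Trp53 was the only member with a value above 0 in every cell as deposited, and it was found in 13 of 28 (46.4%, interval 27.5% to 66.1%). Under the 2% limit it was at 0 in cells 18, 19, 20, 22, 23, 24 and 28, and the count of 13 did not change. The pools held 9.83, 12.3, 84.4 and 4.81 FPKM, against 0.0431 to 286 FPKM in the cells. The highest cells were cell 16 at 286, cell 1 at 204 and cell 3 at 94.3, all led by endothelial markers, followed by cell 27 at 73.0 and cell 21 at 59.9. The endothelial-led group had a median of 7.52 FPKM with 5 of 8 cells found, and the other 20 cells a median of 0.623 with 8 found, and the groups overlapped widely. A processed pseudogene, Trp53-ps, has its own line in the table, at 10.3 FPKM in cell 27 and at 0 in every other library, so the Trp53 value of that cell is uncertain.

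Cdkn1a and its activator gene Trp53 were found together in cells 2 and 6. These are 2 of the 6 cells with Cdkn1a, all of which lay in cells 1 to 17. Trp53 was found in 9 of those 17 cells, and in 13 of all 28 (46.4%). A relation of the 2 genes was not tested. In the 3 cells with the most Cdkn1a, Trp53 was at 0.423 FPKM (cell 8), 0.116 (cell 17) and 11.3 (cell 2). In the 3 cells with the most Trp53, Cdkn1a was at 0 (cells 16 and 1) and 0.614 (cell 3). The 2 genes thus had their highest values in different cells of the same marker group. In the pools, pool 3 was highest for both, with 150 FPKM of Cdkn1a and 84.4 of Trp53. Trp53 was also found in 5 of the 5 cells with Ccnd1 and in 9 of the 18 with Cdkn1b, and the difference between these counts was not tested. Transcript levels of Trp53 do not measure its protein, which is known to be controlled mainly by degradation.

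**Figure D4:**
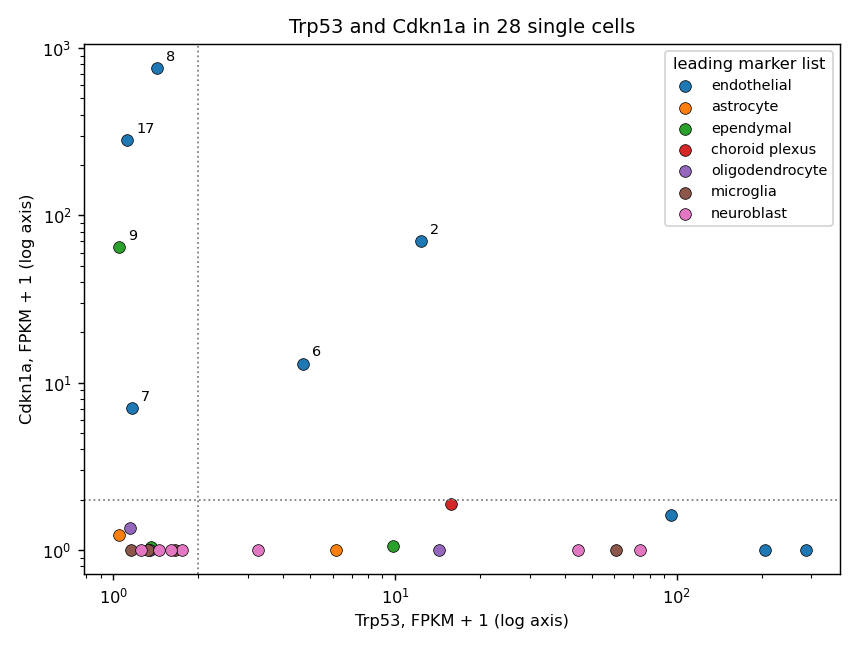
Cdkn1a (vertical) against Trp53 (horizontal) in the 28 single cells, both as FPKM + 1 on log axes, coloured by leading marker list, with dotted lines at FPKM of 1 and the cells with Cdkn1a numbered. Cells 2 and 6 alone lie beyond both lines, and the cells with the most Trp53 lie along the bottom.

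Across cells 18 to 28, 4 of the 8 members found in at least 5 of cells 1 to 17 were below 1 FPKM in all 11 cells: Cdkn1a, Ccnd1, Foxo1 and Rb1. Of all 9060 genes found that often in cells 1 to 17, 25.8% did the same. Cdkn1b was found in 7 of the 11 cells, Ccnd2 in 11, Foxo3 in 3 and Trp53 in 4. The library set, the leading marker list and the lower number of found genes move together here and cannot be told apart.

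Other genes of the same pathways were read from lists. In the list of D cyclin partners and the cell cycle engine, 7 of 8 genes were found in a cell. Cdk4, the kinase partner of the D cyclins, was found in 24 of 28 cells, and in 19 under the 2% limit, with 40.8 to 248.6 FPKM in the pools and 0.0195 to 6178 FPKM in the cells. Ccnd3, the remaining D cyclin, was found in 14 cells and at up to 812 FPKM, in cell 2. Its values above 1 FPKM lay in cells 1 to 17 apart from those of cells 19 (1.25) and 28. In cells 22 to 27, which had 139 to 1598 FPKM of Ccnd2, Ccnd3 was at 0.248 FPKM or less, and in cell 28, with the most Ccnd2, it was at 9.20.

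Of the 4 further inhibitors listed, 2 were found in a cell. Cdkn2d, the INK4 inhibitor p19, was found in 11 cells, with 42.2, 37.9, 25.7 and 49.8 FPKM in the pools and 0 to 312 FPKM in the cells. Cdkn2b was found in 2 cells, at up to 149 FPKM in cell 2, and Cdkn2a and Cdkn3 in none, with the same limits as for Cdkn2c. Of 12 Rb family and E2F genes, 10 were found in a cell, led by E2f4 in 10 cells and E2f1 in 8. Of 14 Foxo family and target genes, 12 were found, led by Sod2 in 17 cells and Txnip in 15. Of 15 p53 regulators and targets, 13 were found, led by Mdm2, the ubiquitin ligase that degrades p53, in 20 cells and by Btg2, an antiproliferative gene, in 16. The count for Mdm2 became 14 under the 2% limit.

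Of 15 proliferation genes listed, 13 were found in a cell, in a median of 4 cells over the list, most widely Pcna, a replication clamp also used in DNA repair, in 16 cells and Ube2c, a mitotic ubiquitin enzyme, in 11 (7 under the 2% limit). Mki67, the usual mark of cycling cells, was found in 3 cells, at 22.02 FPKM in cell 8, 72.1 in cell 21 and 16.1 in cell 25. Cell 14, without Mki67, had 3 of the 15 genes at high levels: Ccnb1 at 683 FPKM, Top2a at 277 and Ube2c at 80.9. The same cell had the most Rb1, at 148 FPKM, and Foxo1 at 162. Cell 21 had 9 of the 15 genes, and 8 under the 2% limit. It had Ccnd2 at 238 FPKM, Cdkn1b at 11.7 and Trp53 at 59.9, with Cdkn1a, Cdkn1c, Ccnd1, Foxo1 and Rb1 each below 1. Those last genes were below 1 in every one of cells 18 to 28, also in cells 24, 27 and 28, which had 0 of the 15. Cell 8, the cell with the most Cdkn1a, had 2 of the 15, Mki67 and Pcna. Cells with Cdkn1a at 0 lay on both sides of it, such as cell 16 with 1 and cell 11 with 4. A relation of Cdkn1a to these genes was not tested.

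Setting the pools against the cells, 3 members were at least 2-fold lower in the pools and 1 was at least 2-fold higher, on the scale of log2((mean of pools + 1)/(mean of cells + 1)). Of all 38740 genes, 7.1% were lower and 6.57% higher by that rule, and of the 19783 genes found in a library 13.9% were lower and 12.9% higher. Ccnd2 averaged 14.5 ± 10.4 FPKM in the pools (SD, n = 4) and 246.1 in the cells, a log2 ratio of -4.00 (SD over pools 1.43). Cdkn1b averaged 4.81 ± 1.72 FPKM in the pools and 19.2 in the cells, a log2 ratio of -1.80 (SD 0.45). Foxo3 averaged 2.49 ± 1.24 FPKM in the pools and 10.9 in the cells, a log2 ratio of -1.78 (SD 0.59). For these 3 genes each of the 4 pools lay below the mean of the cells.

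Those lower levels rested on cells 18 to 28. With cells 1 to 17 alone as the comparison, the log2 ratio was -0.29 for Ccnd2, -0.14 for Cdkn1b and -0.15 for Foxo3, and no member was 2-fold lower, while 3.48% of all genes were. On the mean of log values in place of the log of means, the ratio was -0.58 for Ccnd2, -0.06 for Cdkn1b and 0.36 for Foxo3. In a pool, fewer cells that express a gene and less RNA per cell cannot be told apart.

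Cdkn2c was the member that was higher in the pools, with 5.81 ± 9.31 FPKM (SD, n = 4) against a mean of 0.00608 in the cells and a log2 ratio of 2.76 (SD 2.09). Without pool 2 the ratio was 1.15. The other 6 members had ratios between -0.08 for Trp53 and 0.52 for Cdkn1a, each smaller than its SD over pools. Single libraries weighed on these: without cell 8 the ratio of Cdkn1a was 1.87, without cell 2 that of Cdkn1c was 1.25, without cell 10 that of Ccnd1 was 1.11, and without pool 3 that of Trp53 was -1.61. The cells left out were the highest of each gene, which can only raise the ratio. The direction also turned without pool 4 for Foxo1, where the ratio of 0.36 became -0.83, and without pool 3 for Cdkn1a (-0.42), Cdkn1c (-0.18) and Ccnd1 (-0.33). The ratios of Rb1 and Trp53, near 0, took either sign as single pools were left out. In the order of mean levels in the pools, Cdkn1a stood first at 61.3 ± 66.3 FPKM (SD, n = 4), followed by Foxo1, Cdkn1c, Trp53, Ccnd2, Rb1, Cdkn2c, Ccnd1, Cdkn1b and Foxo3. The values of every pair of neighbours in that order overlapped over the 4 pools. In the order of mean levels in the cells Ccnd2 stood first at 246.1 FPKM, followed by Cdkn1a, Trp53, Foxo1, Cdkn1c, Cdkn1b, Foxo3, Rb1, Ccnd1 and Cdkn2c, and each neighbouring pair down to Ccnd1 overlapped widely over the cells.

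**Figure D5:**
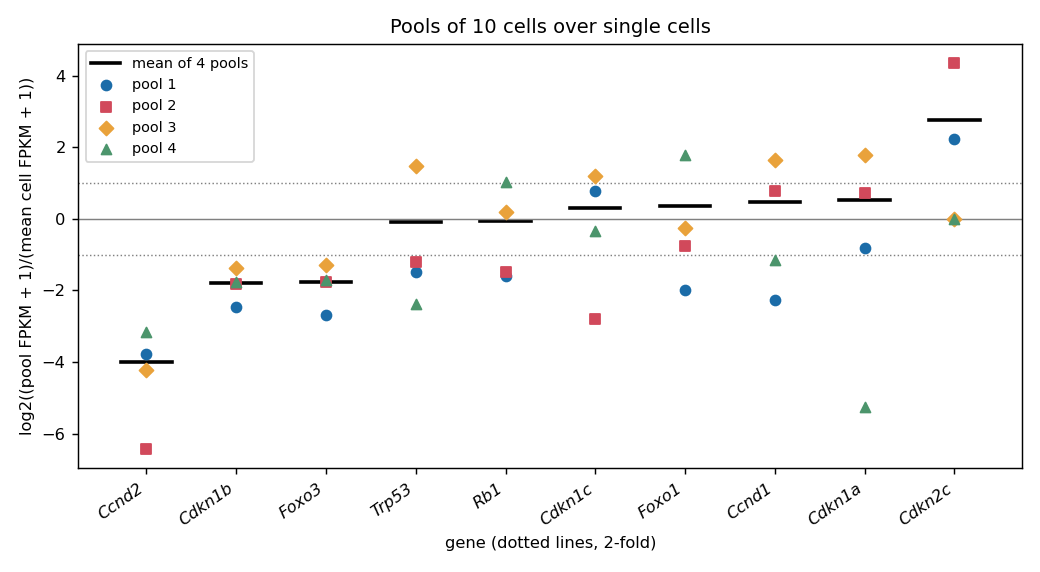
Log2((FPKM of a pool + 1)/(mean FPKM of the 28 cells + 1)) for each gene, with 1 symbol per pool, a black bar for the mean of the 4 pools and dotted lines at 2-fold. All 4 pools of Ccnd2, Cdkn1b and Foxo3 lie below the lower dotted line, and the pools of Cdkn1a spread on both sides of 0.

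Of the 68 further pathway genes, 17 were at least 2-fold lower in the pools and 5 higher, against 3 lower and 3 higher with cells 1 to 17 alone. Of the 19783 genes found in a library, 13.9% were lower and 12.9% higher. With cells 1 to 17 alone, 3.48% of all 38740 genes were lower and 4.88% higher. The proliferation list had 8 of 15 genes lower, with a median log2 ratio of -1.46, against 0.06 over all genes found in a library. With cells 1 to 17 alone, 1 of the 15 was lower and 1 higher. Birc5, an inhibitor of apoptosis needed for cell division, had 0.777 ± 0.905 FPKM in the pools (SD, n = 4) and a mean of 157.7 in the cells, where cell 21 alone had 4307. In the D cyclin partner list 4 of 8 genes were lower, namely Cdk4, Ccna2, Cdc25a and Ccne2, and none of the 4 with cells 1 to 17 alone. Cdk4 averaged 159.8 ± 86.7 FPKM in the pools and 527.7 in the cells, a log2 ratio of -1.72, which was -0.50 with cells 1 to 17 alone. Ccng2, an atypical cyclin and FOXO target, had a ratio of -2.75 against all cells and 1.34 against cells 1 to 17.

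For the 8 members found in 5 to 24 cells, the 3 protein-coding genes with the most similar ranking over the 28 cells were taken from 7895 candidates, by Spearman rho and as a description only, since cells share their library set and depth. Cdkn1a was most similar to Rnf144b at 0.90, an E3 ubiquitin ligase gene that is a known p53 target, and to Strn3 and Tmem204 at 0.87 each. Ccnd2 was most similar to Mrpl45 at 0.81, Tubb2b at 0.80, a tubulin of young neurons, and Yrdc at 0.79. Foxo1 was most similar to Gm11273 at 0.88, Cox5b at 0.87 and Sdc4 at 0.85. Rb1 was most similar to Tada2a at 0.84 and to Tmx2 and Gpkow at 0.80 each.

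The remaining members had lower rho values over the 28 cells, an order that held only in part over cells 1 to 17 alone. There rho was 0.75 to 0.88 for the genes listed with Rb1 and 0.70 to 0.82 for those of Cdkn1a. It was 0.58 to 0.64 for those of Ccnd2, 0.56 to 0.60 for those of Foxo1 and 0.56 to 0.83 for those of Foxo3. Ccnd1 was most similar to Itpa at 0.78, Plec at 0.74 and Ski at 0.71. Foxo3 was most similar to Senp6 at 0.69, Slc36a1 at 0.64 and Daxx at 0.63. Trp53 was most similar to Tpm4 at 0.64 and to Gtf2h1 and Myh10 at 0.60 each. Cdkn1b was most similar to Polr2k at 0.62 and to Map3k12 and Rffl at 0.61 each. Of these 24 genes, 4 were again among the first 3 over cells 1 to 17 alone, and 2 with Pearson correlation on log2(FPKM + 1).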

How the data were processed

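RNA-seq was read from 4 pools of 10 cells and 28 single cells of mouse subventricular zone. The submitters' processing notes name TopHat 1.41, Cufflinks 2.02 and build mm9. The authors deposited gene values as FPKM in a single table. Its 39011 lines match GRCm38 (96.0% carry a GENCODE M21 gene ID, of which 99.7% overlap that gene), so gene positions are GRCm38. Strand setting, read layout and depth are not given in these sources, and intervals cover counting error only. A listed 0 can be a failed estimate.

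Lines of one symbol were summed to 38740 symbols, and 27 symbols turned into dates were restored from the gene ID. Depth was estimated from the FPKM step of 1 fragment in 2342 genes of 1 exon of at least 800 bases, with 200 bases assumed per fragment. A gene was found at FPKM of at least 1. Pools were set against cells as log2((mean + 1)/(mean + 1)), called at 2-fold, which shrinks changes of low genes. No 2 libraries held identical values. Cells are not replicates and the labels tie no library to an animal, so no test of a difference between groups was run. Dixon's outlier criterion was applied to the 4 pools of each member. No doublet was removed. Python 3.11.15, numpy 2.4.6, pandas 2.3.3 and scipy 1.17.1 were used, and the computations were tested on simulated data.

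Named were the 10 members, the 2 genes of each pathway list found in the most cells, list genes past 2-fold with all 4 pools on one side, and the 3 most similar genes of each member found in 5 to 24 cells. For lists with many such genes a selection is printed. Dlx1, Dlx6os1 and overlapping genes fall outside that rule and were chosen after their values were seen. The members, lists and marker lists were chosen with earlier results of these data known, and the motifs after the values were seen. RefSeq promoter windows (GRCm38.p6) matched 6 members. Alternatives changed the threshold, pseudocount, scaling, log of means, set of cells, low-value limit, pools and similarity measure.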

Additional observations from a re-analysis of the deposited data

Results flagged for a closer look

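Trp53 in pool 3 had 84.4 FPKM, the highest of the 4 pools, against 4.81 to 12.3 FPKM in the others. The gap to the next pool exceeded Dixon's 95% critical value for 4 values. Chance gives such a gap in about 1 in 20 groups, and the values of all 10 members in the pools were looked at in this way. Cdkn1a was also highest in pool 3, at 150 FPKM, without passing that value.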

How the results depend on the processing

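The number of members found per cell, 3.21 as reported, became 5.46 with any value above 0. The count of members at least 2-fold higher in the pools, 1 as reported, became 0 with a pseudocount of 10, where 1.21% of all genes were higher. It became 7 with the mean of log values, where 24.8% of all genes were higher and the median of found genes was 0.95. Without the highest cell of each member it became 4. Leaving out that cell can only raise a ratio, and no share of all genes was computed for it, so this count says nothing particular about the members. The count at least 2-fold lower, 3 as reported, became 1 with a pseudocount of 10, 0 with the mean of log values and 0 with cells 1 to 17 alone. The shares of all genes lower in these settings were 3.56%, 0.663% and 3.48%. Leaving out each pool gave 1 higher throughout and 3 to 4 lower. The ratio of Foxo3, -1.78 as reported, turned to 0.36 with the mean of log values. Upper-quartile scaling gave -6.19 for Ccnd2, -3.66 for Cdkn1b and -3.17 for Foxo3. No member had all cells of a leading marker list of at least 2 cells above every other cell as deposited, and 1 (Ccnd2) did under the 2% limit. Of the 24 most similar genes, 4 were shared with cells 1 to 17 and 2 with Pearson correlation. The cause of these shifts was not tested. The alternatives with cells 1 to 17 for found counts, with limits of 1% and 5%, without cell 21 and without the highest cell were chosen after seeing the data.

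Of the other values, 198 alternatives were labelled as unchanged and 31 as moved, counts of cells with a member and single ratios among them. Single ratios were labelled against their SD over pools. Counts were compared as raw numbers, not with the spread of the libraries or the intervals. Thus Cdkn1b in 24 cells in place of 18 was labelled unchanged, and in 11 of cells 1 to 17 moved. No paired analysis was possible because cells and pools share only library numbers, which name libraries and pair nothing, and no test was made. Unknown depth limits what a listed 0 can show, and 28 cells limit each share to the intervals given.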
